A study of Mus musculus with 6 samples.

Results

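Genes of glycolysis and glycogen metabolism were examined in the skeletal muscle of mice that lack the proteasome subunit Rpt3. The set held 40 genes picked by name for their step in the pathway: glucose and lactate transporters, the enzymes from hexokinase to lactate dehydrogenase, and the enzymes and regulators that break down, build and locate glycogen. Of these, 35 had a value on the arrays, out of 14732 genes tested. Total RNA of 3 muscle samples with the genotype Rpt3 null and 3 control samples was labelled with Cy5 and read on CodeLink whole-genome mouse arrays, 1 for each sample. All mice were female and 6 weeks old, and the labels give both groups the same strain, mlc1f-Cre with floxed Rpt3. The study describes its controls as Mlc1f-Cre mice with intact Rpt3 alleles, so both groups carried the Cre transgene, and the groups are called Rpt3-/- and Rpt3+/+ below. The Cre is driven by the promoter of Mlc1f, a fast myosin light chain, so that deletion is directed to fast-twitch fibers and other cells of the tissue are not its target. The labels name the tibialis anterior as the tissue, whereas the text of the study names the gastrocnemius for its array data. The labels number the 3 samples of a group without saying that they came from separate animals, so p-values measure the spread between these samples, which may be technical.

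Fast-twitch fibers draw much of their ATP from glycogen. Phosphorylase, switched on by phosphorylase kinase, releases glucose units that phosphoglucomutase passes into glycolysis, and pyruvate is reduced to lactate, which leaves the fiber through a monocarboxylate transporter. Many steps have a form made mainly in mature muscle (Pygm, Phkg1, Pfkm, Pgam2, Eno3) beside a form used in most other cells (Pygb, Phkg2, Pfkl, Pgam1, Eno1), and several muscle forms are known for human glycogen storage diseases, such as PYGM in McArdle disease.

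The 4 largest falls were in genes of glycogen breakdown and glycogen targeting (Phkg1, Ppp1r3c, Ppp1r3a and Pgm1). Of the 35 measured members, 16 were lower and 2 were higher in Rpt3-/- muscle at an adjusted p under 0.05, and 17 did not pass (limma, Benjamini-Hochberg adjustment over all tested genes). Of the higher calls, that of Slc2a1 was tested only because the gene was above background in the group where it is high. Over all tested genes 6.56% were called lower, 12.7% higher and 19.3% either way. The median log2 difference, Rpt3-/- minus Rpt3+/+, was -0.42 over the measured members and -0.01 over all tested genes. Lower calls past 2-fold numbered 7 among the members, against 1.18% of all tested genes. The groups did not overlap on any array for 21 members that were lower and 4 that were higher, 25 in all, 7 of which did not pass the test. Over all tested genes the groups were apart for 36.8%, made up of 15.6% in the lower and 21.2% in the higher direction. With arrays centred on their median in place of quantile normalization, 10 members were called lower and 4 higher, and with the unpaired test named in the methods of the study (the methods' test) and the same adjustment, 9 and 2. Over all 14732 tested genes, median centring called 600 lower and 2556 higher, and the methods' test after adjustment 427 and 940. In whole muscle RNA, fewer cells of a type and less RNA per cell cannot be told apart.

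**Figure D1:**
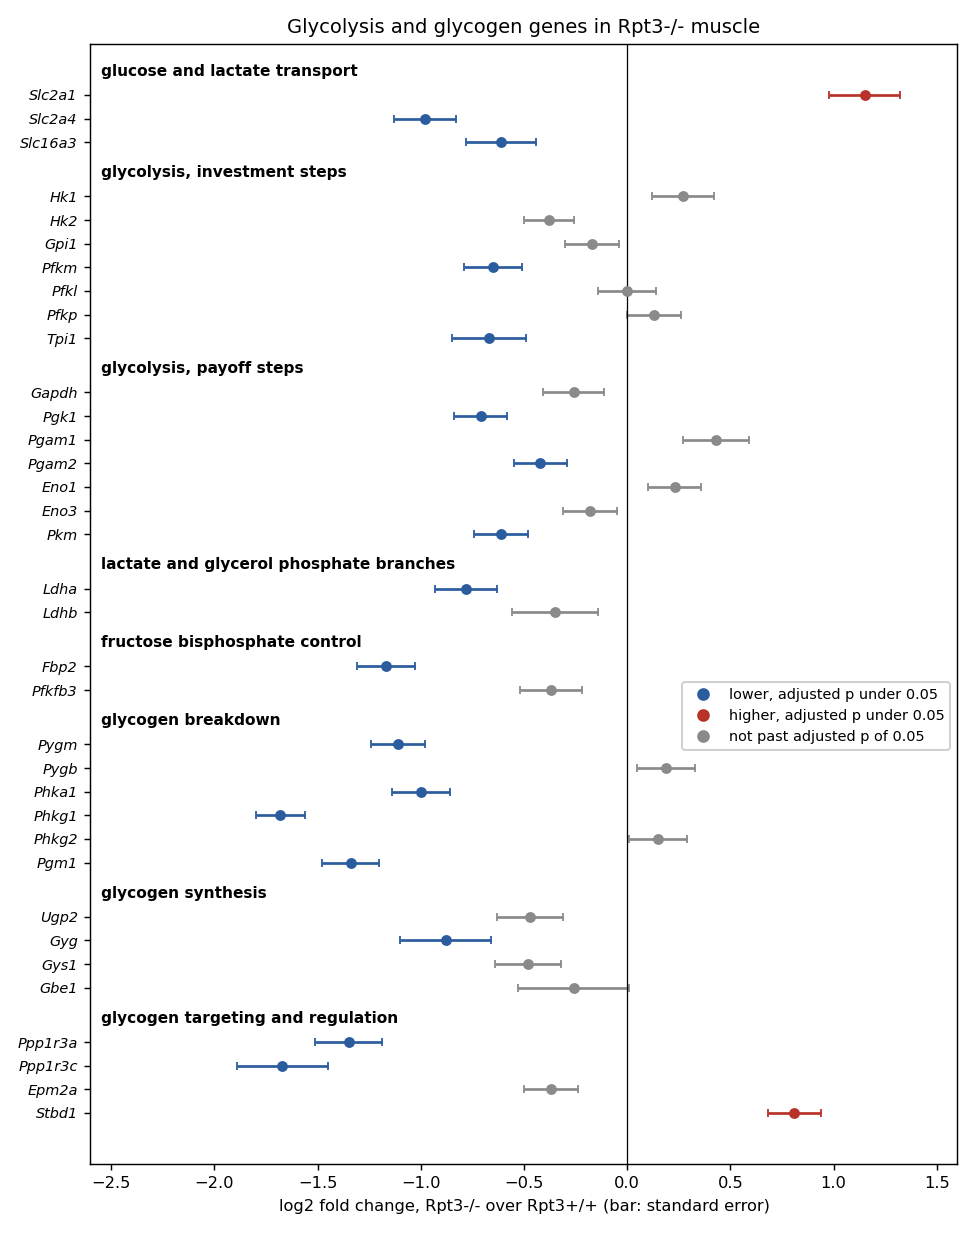
Log2 difference between Rpt3-/- and Rpt3+/+ muscle (horizontal axis) for the 35 measured members, grouped by role; points are limma estimates from 3 arrays a group and bars are standard errors. The 16 genes called lower lie between -1.68 (Phkg1) and -0.42 (Pgam2), and Slc2a1 (1.15) and Stbd1 (0.81) lie on the higher side.

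Sequences of 250 bases upstream of the RefSeq start (build GRCm38.p6) are shown for 3 pairs of genes that serve the same step. They are the muscle form and the widely used form of glycogen phosphorylase, of the catalytic subunit of phosphorylase kinase, and of phosphoglycerate mutase. The difference between groups was unequal in these pairs and also in the other pairs compared below, which are not shown. Capitals mark CAGCTG, a site of the kind bound by myogenic basic helix-loop-helix factors, and the MEF2 consensus, named for the myocyte enhancer factors. The sequences run 5′ to 3′ on the strand of the gene and end at the base before the start.
Pygm (chr19:6384158-6384407, plus strand): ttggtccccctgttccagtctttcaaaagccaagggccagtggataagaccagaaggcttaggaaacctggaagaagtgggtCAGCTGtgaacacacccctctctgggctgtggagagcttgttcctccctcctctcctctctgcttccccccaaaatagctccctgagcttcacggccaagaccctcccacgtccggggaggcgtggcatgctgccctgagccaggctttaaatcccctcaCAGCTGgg
Pygb (chr2:150786546-150786795, plus strand): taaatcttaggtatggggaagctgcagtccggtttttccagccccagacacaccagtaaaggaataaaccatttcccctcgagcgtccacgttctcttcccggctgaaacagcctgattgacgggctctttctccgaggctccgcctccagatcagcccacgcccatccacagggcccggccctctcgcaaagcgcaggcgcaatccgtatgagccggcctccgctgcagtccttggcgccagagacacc
Phkg1 (chr5:129879089-129879338, minus strand): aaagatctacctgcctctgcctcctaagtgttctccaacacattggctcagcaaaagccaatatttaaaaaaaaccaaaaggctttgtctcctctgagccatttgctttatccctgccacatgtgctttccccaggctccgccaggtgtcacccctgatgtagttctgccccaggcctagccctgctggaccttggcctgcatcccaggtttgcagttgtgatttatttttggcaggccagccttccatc
Phkg2 (chr7:127573098-127573347, plus strand): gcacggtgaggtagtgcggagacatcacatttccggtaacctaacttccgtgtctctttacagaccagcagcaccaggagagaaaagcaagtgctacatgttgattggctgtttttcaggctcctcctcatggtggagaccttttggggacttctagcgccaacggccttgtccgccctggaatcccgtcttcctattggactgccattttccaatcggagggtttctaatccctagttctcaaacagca
Pgam2 (chr11:5803797-5804046, minus strand): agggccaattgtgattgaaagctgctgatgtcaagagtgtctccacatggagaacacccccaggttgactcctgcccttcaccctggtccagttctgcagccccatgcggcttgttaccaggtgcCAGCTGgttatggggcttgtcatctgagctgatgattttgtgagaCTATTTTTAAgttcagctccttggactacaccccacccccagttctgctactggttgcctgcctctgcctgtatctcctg
Pgam1 (chr19:41911621-41911870, plus strand): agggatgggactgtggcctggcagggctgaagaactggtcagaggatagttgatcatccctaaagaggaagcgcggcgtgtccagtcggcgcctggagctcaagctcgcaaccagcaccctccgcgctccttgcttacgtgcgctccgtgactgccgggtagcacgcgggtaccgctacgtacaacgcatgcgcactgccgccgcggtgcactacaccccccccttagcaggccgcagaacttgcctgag
Pygm held 2 CAGCTG sites, beginning 168 and 8 bases before the start. In Pgam2, CAGCTG began 125 and the MEF2 consensus 80 bases before the start. The windows of Pygb, Phkg1, Phkg2 and Pgam1 held neither. Nor did those of Pfkm, Ldha, Eno3 and Hk2, from pairs not shown. The table held a window for 34 of the 35 measured members. CAGCTG, which reads the same on both strands and is 1 form of the wider motif CANNTG, lay in the window of 7 of 15 members called lower (all but Slc2a4, which had no window), 46.7%: Pgam2, Pkm, Fbp2, Pygm, Phka1, Ppp1r3a and Ppp1r3c. It lay in 3 of 17 members not called (17.6%), in neither member called higher, and in 14.4% of the 11683 tested genes with a window. CANNTG was found, on either strand, in 86.7% of the members called lower, 58.8% of those not called and 64.4% of tested genes. The MEF2 consensus lay in 2 of the 15 (Pgam2 and Ppp1r3a) and in 2.6% of tested genes, and GGGCGG, the core of an Sp1 site, in 53.3% and 55%. These matches describe letters in the windows, and their relation to the levels was not tested.

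Glycogen breakdown was the role with the most members lowered: 4 of its 6 measured genes were called lower, with a median log2 difference of -1.06. Phkg1, the muscle catalytic subunit of phosphorylase kinase, read 12.53, 12.55 and 12.63 (log2 intensity) in Rpt3+/+ mice and 10.87, 10.88 and 10.91 in Rpt3-/- mice. Arrays within each group were close to one another and the groups stood far apart. The fall was 3.22-fold (log2 difference -1.68 ± 0.12, standard error; adjusted p = 2.06e-05), and it carried the lowest adjusted p of the members. Phka1, the muscle regulatory subunit of the same kinase, was at 11.50, 11.26 and 11.42 in Rpt3+/+ and 10.35, 10.56 and 10.27 in Rpt3-/- muscle, 2-fold lower (adjusted p = 0.00086), and its dimmer second probe fell by 1.55 on the log2 scale. Pygm, the muscle glycogen phosphorylase, gave 13.11, 13.19 and 13.23 against 11.93, 12.07 and 12.19. No Rpt3-/- array came near the lowest control for either gene, and Pygm was 2.16-fold lower (-1.11 ± 0.13; adjusted p = 0.000337).

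Pgm1, the phosphoglucomutase that passes glucose units from glycogen into glycolysis (older gene tables call this gene Pgm2), measured 12.52, 12.51 and 12.64 in Rpt3+/+ and 11.02, 11.30 and 11.35 in Rpt3-/- muscle. The drop was 2.52-fold (adjusted p = 0.000177), and a dimmer probe gave a log2 difference of -0.73. The forms used outside muscle did not pass the test. Pygb, the brain form of phosphorylase, ran from 7.62 to 8.0 in Rpt3+/+ and from 7.84 to 8.11 in Rpt3-/- mice (log2 difference 0.19; adjusted p = 0.419), and Phkg2, the liver form of the kinase subunit, from 8.17 to 8.39 and from 8.24 to 8.60 (0.15; 0.524). Both overlapped between groups. Of the remaining genes of this role, Phkb had no named probe, and the probe of the gene now called Pgm2 was not above background on any array.

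Transcripts of proteins that bind glycogen differed in opposite directions. Ppp1r3c and Ppp1r3a, which bring protein phosphatase 1 to glycogen particles and so favour glycogen synthase, were both called lower. Levels of Ppp1r3c were 10.22, 10.74 and 10.73 in Rpt3+/+ and 8.41, 9.15 and 9.11 in Rpt3-/- mice; those of Ppp1r3a were 9.85, 10.21 and 10.21 against 8.71, 8.97 and 8.54. The first array of each group was the lowest for Ppp1r3c, yet the groups were separate. The falls were 3.19-fold (-1.67 ± 0.22; adjusted p = 0.000725) and 2.55-fold (-1.35 ± 0.16; adjusted p = 0.000392). Stbd1, a membrane protein that binds glycogen and is linked to its delivery to lysosomes, went the other way: 9.42, 9.77 and 9.68 in Rpt3+/+ and 10.46, 10.43 and 10.42 in Rpt3-/- mice, 1.76-fold higher (0.81 ± 0.13; adjusted p = 0.00232). Epm2a, the glycogen phosphatase laforin, ran from 7.81 to 8.07 and from 7.55 to 7.70; the groups did not touch, but the difference of -0.37 did not pass (adjusted p = 0.077), and without control replicate 1 it did (-0.44; adjusted p = 0.0327).

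Among the enzymes that build glycogen, 1 of 4 was called. Gyg, glycogenin, the primer of the particle, read 10.07, 10.54 and 10.63 in Rpt3+/+ and 9.09, 9.85 and 9.66 in Rpt3-/- muscle (1.84-fold lower; adjusted p = 0.0172). This call rested on single arrays and on the probe. It was lost without Rpt3-/- replicate 1 (-0.65; adjusted p = 0.0727) and without Rpt3+/+ replicate 3 (-0.78; adjusted p = 0.086), and a dimmer second probe gave 0.31 (adjusted p = 0.434). Gys1, the muscle glycogen synthase, measured 10.59 to 10.85 in Rpt3+/+ and 10.01 to 10.48 in Rpt3-/- mice, and Ugp2, which makes UDP-glucose, 12.58 to 12.94 and 12.06 to 12.45. Every Rpt3-/- array lay below every control for both, but the differences of -0.48 and -0.47 did not pass (adjusted p = 0.0588 and 0.0632). Gbe1, the branching enzyme, was spread most widely in the controls, with replicate 1 at 7.60 and the others at 8.70 and 8.54. Its Rpt3-/- arrays were at 7.69, 8.14 and 8.24 (-0.26 ± 0.27; adjusted p = 0.567). Without Rpt3+/+ replicate 1, Gbe1 (-0.60; adjusted p = 0.0203), Gys1 (-0.57; 0.0188) and Ugp2 (-0.57; 0.0172) were each called lower. Other settings made these differences smaller. Median centring gave -0.17 for Gbe1, -0.22 for Gys1 and -0.15 for Ugp2 (adjusted p = 0.699, 0.41 and 0.602). Without Rpt3+/+ replicate 2, Gbe1 was at -0.04 (adjusted p = 0.916).

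**Figure D2:**
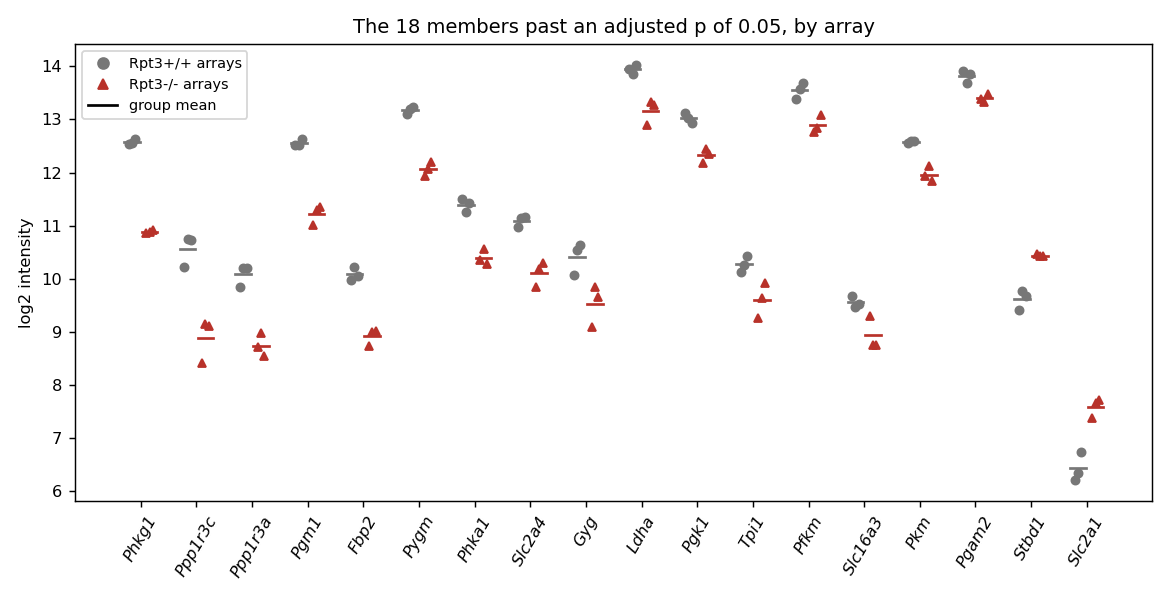
Log2 intensity (vertical axis) on each of the 3 Rpt3+/+ arrays (gray circles) and 3 Rpt3-/- arrays (red triangles) for the 18 members called, ordered from the largest fall to the largest rise; short lines are group means. The groups are apart for all 18, widest for Phkg1; levels of different genes come from different probes and are not comparable with each other.

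The transporters also split. Slc2a4, the insulin- and contraction-responsive transporter Glut4, was at 10.98, 11.15 and 11.16 in Rpt3+/+ and 9.85, 10.19 and 10.29 in Rpt3-/- mice. It was 1.97-fold lower (-0.98 ± 0.15; adjusted p = 0.0015), and a second probe of the same transcript fell by 0.94 on the log2 scale. Slc2a1, the basal transporter Glut1 found in most cell types, read 6.21, 6.35 and 6.73 in Rpt3+/+ and 7.38, 7.67 and 7.71 in Rpt3-/- mice. It was above background on all 3 Rpt3-/- arrays but on only 1 Rpt3+/+ array, so it entered the test through the group where it is high and the size of its difference is not settled. That difference was 1.15 on the log2 scale (adjusted p = 0.00115) and ran from 0.94 with array weights to 2.15 with plain background subtraction. Slc16a3, the lactate exporter Mct4 of fast fibers, read 9.67, 9.47 and 9.52 against 9.30, 8.76 and 8.75 (1.53-fold lower; adjusted p = 0.0281). Rpt3-/- replicate 1 was nearest to the controls for this gene. The call was lost without Rpt3-/- replicate 2 (-0.53; adjusted p = 0.103), Rpt3-/- replicate 3 (-0.51; 0.123) or Rpt3+/+ replicate 3 (-0.64; 0.0921). It was also lost with median or 75th percentile centring (-0.43 and -0.52; 0.118 and 0.066), and a dimmer probe gave -0.24 (adjusted p = 0.297).

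In the early steps of glycolysis, from hexokinase to triose phosphate isomerase, 2 of 7 measured genes were called lower (median -0.17). Pfkm, the muscle phosphofructokinase and a main control point of the pathway, measured 13.38, 13.58 and 13.68 in Rpt3+/+ and 12.77, 12.84 and 13.09 in Rpt3-/- mice, 1.57-fold lower (adjusted p = 0.0104). The call was lost without Rpt3+/+ replicate 3 (-0.57; adjusted p = 0.0739) and with median or 75th percentile centring (-0.46 and -0.54; adjusted p = 0.0844 and 0.0681). Pfkl and Pfkp, the forms of liver and platelets, overlapped between groups, with log2 differences of 0.00 (adjusted p = 0.993) and 0.13 (0.551). Tpi1, the triose phosphate isomerase, was at 10.13, 10.26 and 10.42 against 9.26, 9.63 and 9.92 (1.59-fold lower; adjusted p = 0.0236), but its other probe did not move with it (-0.02; adjusted p = 0.929). The call of Tpi1 was lost without Rpt3-/- replicate 1 (-0.49; adjusted p = 0.093), Rpt3-/- replicate 2 (-0.69; 0.0613) or Rpt3+/+ replicate 3 (-0.60; 0.115), and with median or 75th percentile centring (-0.46 and -0.54; 0.108 and 0.0694).

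The hexokinases differed in direction without passing. Hk2, the form enriched in insulin-sensitive muscle, ran from 11.41 to 11.53 in Rpt3+/+ and from 10.98 to 11.18 in Rpt3-/- mice, with no overlap (-0.38 ± 0.12; adjusted p = 0.0594). Hk1, the form of most tissues, ran from 7.91 to 8.43 and from 8.38 to 8.54 (0.27 ± 0.15; adjusted p = 0.255). Gpi1, which turns glucose phosphate into fructose phosphate, overlapped (-0.17; adjusted p = 0.418), and its sign turned when arrays were centred on the median (0.11) or the 75th percentile (0.02). Aldoa, the muscle aldolase, had only a probe listed with a second gene and is given no value.

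In the steps that yield ATP, 3 of 7 measured genes were called lower (median -0.26). Pgk1, phosphoglycerate kinase, read 13.13, 13.02 and 12.94 in Rpt3+/+ and 12.18, 12.44 and 12.35 in Rpt3-/- muscle (1.63-fold lower; adjusted p = 0.00426). Pkm, the pyruvate kinase of muscle, gave 12.55, 12.60 and 12.59 against 11.93, 12.12 and 11.84 (1.53-fold lower; adjusted p = 0.00794). Both were separate between groups. The Pkm call was lost in the value table of the authors, where the difference was -0.27 (adjusted p = 0.211), and with median or 75th percentile centring (-0.29 and -0.38); the Pgk1 call was lost with median centring (-0.40; adjusted p = 0.059). Pgam2, the muscle phosphoglycerate mutase, was at 13.91, 13.68 and 13.85 against 13.39, 13.33 and 13.48, a small fall of 1.34-fold (adjusted p = 0.0428). It was the weakest of the calls: it was lost without Rpt3-/- replicate 1, 2 or 3 (adjusted p = 0.103, 0.112 and 0.0721) and without Rpt3+/+ replicate 1 or 3 (0.0951 and 0.187). Median or 75th percentile centring (0.0889 and 0.0541) and plain background subtraction (0.0916) also lost it. The call was kept in 9 of 20 alternatives other than the methods' test.

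The widely used forms of these steps lay on the higher side without passing. Pgam1 ran from 9.25 to 9.77 in Rpt3+/+ and from 9.77 to 10.08 in Rpt3-/- mice (0.43 ± 0.16; adjusted p = 0.0889), and without Rpt3+/+ replicate 2 it was called (0.57; adjusted p = 0.0184). Eno1, the enolase of most cells, ran from 10.86 to 10.98 and from 11.01 to 11.29 (0.23 ± 0.13; adjusted p = 0.265). With median centring both Pgam1 (0.64) and Eno1 (0.51) passed. Eno3, the muscle enolase, was at 14.61, 14.43 and 14.54 against 14.24, 14.35 and 14.47 and did not pass (-0.18; adjusted p = 0.383). Its spot was the only one of a member to be saturated, on Rpt3+/+ replicate 1, and the difference was -0.74 (adjusted p = 0.006) under cyclic loess. Gapdh, a glycolytic enzyme often used as a reference transcript, overlapped between groups at 8.15, 7.94 and 8.14 against 8.08, 7.72 and 7.66. It did not pass (-0.26 ± 0.15, adjusted p = 0.276), and its other probe was above background on 2 arrays. The probe used read only 119 to 304 after background subtraction, and how well it reports Gapdh was not tested. Actb, another common reference, was higher in Rpt3-/- muscle, from 12.56 to 12.70 in Rpt3+/+ and from 12.95 to 13.15 in Rpt3-/- mice (0.45; adjusted p = 0.0294).

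At the lactate branch, Ldha, the lactate dehydrogenase subunit typical of fast muscle, measured 13.95, 13.85 and 14.03 in Rpt3+/+ and 12.90, 13.32 and 13.28 in Rpt3-/- mice. It was 1.71-fold lower (-0.78 ± 0.15; adjusted p = 0.00496). Ldhb, the subunit typical of heart and oxidative fibers, read 10.88, 10.80 and 10.88 against 9.96, 10.80 and 10.76. Only Rpt3-/- replicate 1 stood away from the controls for Ldhb (-0.35 ± 0.21; adjusted p = 0.29), and without that array the difference was -0.08. Fbp2, the muscle fructose bisphosphatase that opposes phosphofructokinase, was at 9.97, 10.22 and 10.06 in Rpt3+/+ and 8.73, 8.99 and 9.02 in Rpt3-/- mice, 2.25-fold lower (-1.17 ± 0.14; adjusted p = 0.000391). Pfkfb3, which makes an activator of phosphofructokinase, overlapped between groups (-0.37; adjusted p = 0.11) and was called without Rpt3+/+ replicate 2 (-0.47; 0.0432). Gpd1 had a probe shared with a second gene, and Pfkfb1 had no named probe.

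The 9 pairs of forms of 1 step were compared on each array as the log2 ratio of their probes; only its shift between groups has a meaning, since the probes differ. In all 9 the ratio of the muscle form, or of the form typical of fast muscle, to the other form was lower on every Rpt3-/- array than on any Rpt3+/+ array. These ratios restate the differences of the members given above, and the share of other gene ratios that separate the groups was not computed; of single genes, 36.8% did. The shift was -1.83 for Phkg1 over Phkg2 and -1.30 for Pygm over Pygb. It was -0.85 for Pgam2 over Pgam1, -0.78 and -0.65 for Pfkm over Pfkp and Pfkl, -0.65 for Hk2 over Hk1 and -0.43 for Ldha over Ldhb. The sizes for Slc2a4 over Slc2a1 (-2.14) and Eno3 over Eno1 (-0.40) are not settled. Slc2a1 was above background on only 1 Rpt3+/+ array, and Eno3 was saturated on Rpt3+/+ replicate 1. The pair of Slc2a1 stands among the 9 only because that gene passed the filter through the group where it is high. Ldha over Ldhb was at 3.07, 3.05 and 3.15 in Rpt3+/+ and 2.94, 2.52 and 2.52 in Rpt3-/- mice, where Rpt3-/- replicate 1 lay close to the controls. Gapdh over Actb, also compared, shifted by -0.71. Each had a two-sided exact permutation p of 0.1, and 0.1 after adjustment over the 10 ratios, the smallest that 3 arrays against 3 allow.

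**Figure D3:**
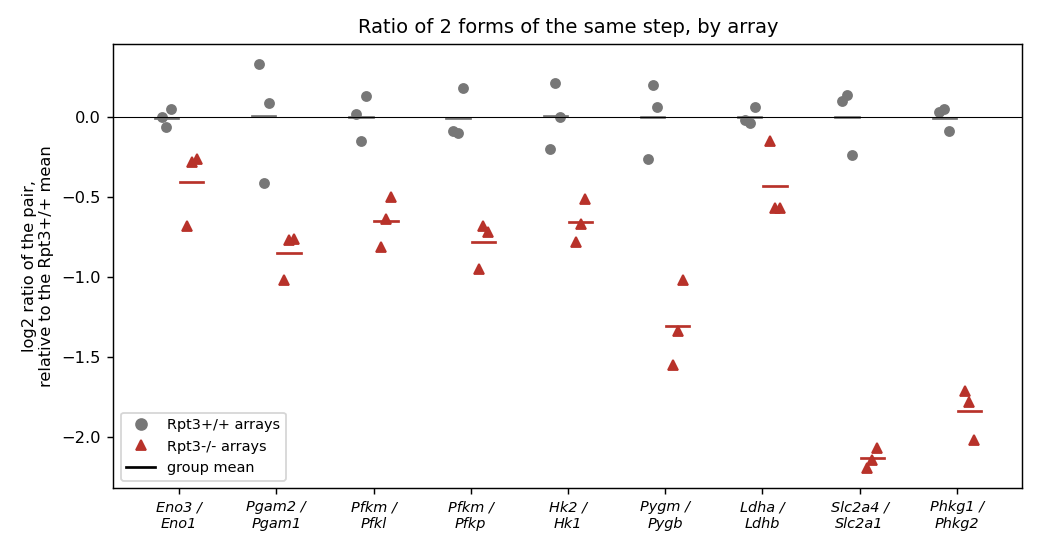
Log2 ratio of the 2 forms of a step (vertical axis), set relative to the Rpt3+/+ mean of each pair, on the 3 Rpt3+/+ arrays (gray circles) and the 3 Rpt3-/- arrays (red triangles); short lines are group means. Every red triangle lies below every gray circle of its pair, with a mean shift of -1.83 for Phkg1 over Phkg2; the sizes for the pairs of Slc2a1 (dim) and Eno3 (saturated on 1 array) are not settled.

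Other genes of the same and adjoining pathways were counted from lists. Of 14 other glycolytic genes, 6 were called, each of them lower (median -0.12). Gpd2, the mitochondrial glycerol phosphate dehydrogenase, read 9.21, 10.13 and 9.93 in Rpt3+/+ and 7.60, 7.88 and 7.92 in Rpt3-/- mice, 3.88-fold lower (adjusted p = 0.00031). Bpgm, the bisphosphoglycerate mutase, went from 9.51, 9.86 and 9.89 to 7.84, 7.94 and 8.28, 3.33-fold lower (adjusted p = 0.000119). These log2 differences of -1.96 and -1.74 stand beside -1.68 for Phkg1. Tigar, a fructose bisphosphatase-like enzyme, and Pfkfb4, a relative of Pfkfb3, were 2.10-fold and 1.89-fold lower. Of 13 other glycogen genes 2 were lower (median -0.09): Ppp1cb, the catalytic subunit that the Ppp1r3 proteins carry, by 2.79-fold (adjusted p = 0.00177), and Calm3, 1 of the genes for the calmodulin that also serves as a phosphorylase kinase subunit, by 1.44-fold (adjusted p = 0.0151).

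The NADH shuttles, which move the reducing power of glycolysis into mitochondria, had 4 of 6 genes lower (median -0.74): Got1 by 2.79-fold, Slc25a12 by 2.48-fold, Slc25a11 by 1.95-fold and Mdh2 by 1.44-fold. None of the 4 passed the methods' test after adjustment (adjusted p from 0.0527 for Got1 to 0.0724 for Slc25a12). Pyruvate entry had 4 of 11 lower and 1 higher (median -0.23). The dehydrogenase subunits Dld and Pdha1 fell 2.38-fold and 1.85-fold, while Pdhb and Dlat did not pass (adjusted p = 0.991 and 0.0682). The phosphatase regulator Pdpr fell 2.06-fold, and the kinase Pdk2, which switches the complex off, 1.75-fold. The gene called higher was another such kinase, Pdk3, at 1.71-fold (adjusted p = 0.00898). Pdk3 was above background on 3 Rpt3-/- arrays but on only 2 Rpt3+/+ arrays. By the methods' test after adjustment, 0 of the 11 pyruvate entry genes were called. Of 7 pentose phosphate genes 2 were called, both higher (median 0.18), where 12.7% of all tested genes were called higher. Taldo1, transaldolase, rose 1.90-fold from 9.77, 9.83 and 9.77 to 10.48, 10.78 and 10.89 (adjusted p = 0.00152), and Pgls, the lactonase, 1.46-fold (adjusted p = 0.0274). Pgls did not pass the methods' test after adjustment (adjusted p = 0.109). Among the 7 subunits of AMPK, the energy-sensing kinase, Prkag3, the muscle form of the gamma subunit, was 2.50-fold lower and the catalytic Prkaa2 1.72-fold lower, while the other catalytic form, Prkaa1, was 1.79-fold higher (adjusted p = 0.000762, 0.00236 and 0.00951). Of 6 other genes of transport 1 was called, where 19.3% of all tested genes were called either way. It was Emb, embigin, a partner of monocarboxylate transporters, 2.76-fold higher (adjusted p = 0.000446).

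Markers of fiber type and of other cells moved with the groups as well. Fast fiber markers were present, with 12 of 13 measured and a log2 summed level of 17.76 to 17.84 in Rpt3+/+ and 17.58 to 17.60 in Rpt3-/- muscle. That sum is carried in part by capped spots, since Tnni2 and Mylpf were saturated on 2 arrays of each group, Tnnc2 on 3 Rpt3-/- and 1 Rpt3+/+, and Atp2a1 and Pvalb on 3 and 1 Rpt3+/+ arrays. Of the list, 4 were lower and 1 higher (median -0.23), with Casq1, the fast calsequestrin, 1.97-fold and Myl1, a fast myosin light chain, 1.80-fold lower, Actn3 1.56-fold lower and Myh1 1.63-fold higher. Slow fiber markers were higher for 7 of 10 (summed level 14.29 to 14.60 against 14.84 to 14.97), among them Casq2, Tnni1, Tnnc1 and Tnnt1 at 2.69-, 2.57-, 2.52- and 2.35-fold. The other 3 overlapped between groups and did not pass. They were Myh7, the slow myosin (0.37, adjusted p = 0.258), Myoz2 (0.12, 0.631) and Myl3, on the lower side (-0.25, 0.235). Markers of regenerating fibers were higher for 7 of 8 (10.79 to 11.02 against 12.95 to 13.59). They were led by Myl4 at 16.1-fold and Myh8, the perinatal myosin, at 11.3-fold. Among the 7, Tnnt2 and Chrng were above background on 3 Rpt3-/- arrays but on only 1 Rpt3+/+ array. These 2 entered the test through the group where they are high, and the sizes of their differences are not settled. Macrophage markers were higher for 6 of 9 (11.04 to 11.20 against 12.28 to 12.63), led by Ctss at 6.42-fold. However, the other 3 overlapped between groups and did not pass: Cd163 (-0.04, adjusted p = 0.944), Mrc1 (0.19, 0.54) and Laptm5 (0.11, 0.591). Adgre1 and Itgam were above background on 1 and 2 arrays, and Cd68 and Csf1r had no named probe. Fcer1g, among the 6, was above background on 3 Rpt3-/- arrays but on only 2 Rpt3+/+ arrays. Adipocyte markers were higher for 3 of 5 (12.66 to 12.88 against 13.13 to 13.31) and fibroblast markers for 3 of 8 (14.24 to 14.50 against 14.80 to 14.90). After adjustment, the methods' test called 3 fast, 4 slow, 4 regenerating, 4 macrophage, 0 adipocyte and 2 fibroblast markers. None of 7 endothelial (10.80 to 11.33 against 10.90 to 11.09) or 2 red cell genes (7.74 to 9.35 against 7.71 to 7.84) was called by limma, with 1 of each at an unadjusted p under 0.05 and 0 by the methods' test after adjustment. The part of these shifts in the members' differences was not tested.

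**Figure D4:**
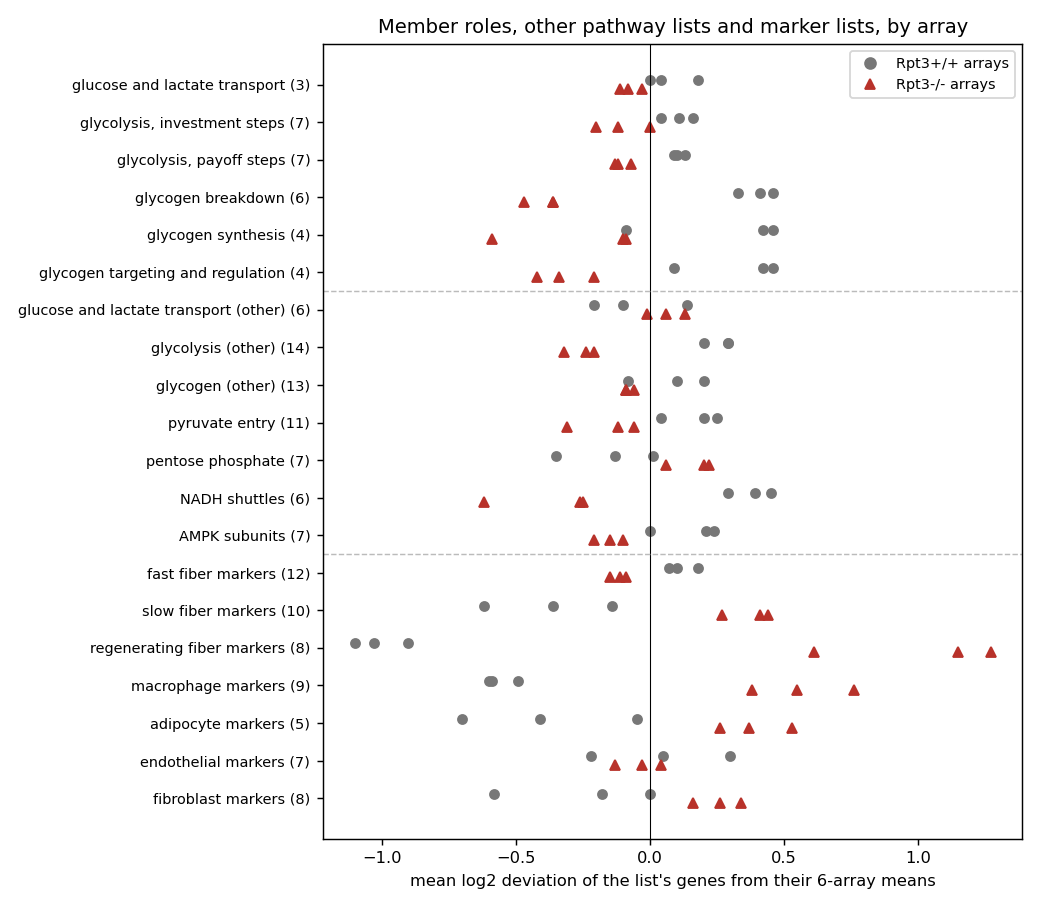
Mean log2 deviation of the genes of a list from their own means over the 6 arrays (horizontal axis), for the 3 Rpt3+/+ arrays (gray circles) and the 3 Rpt3-/- arrays (red triangles), with the number of measured genes in parentheses; member roles are on top, other pathway lists in the middle and marker lists below, and lists of 2 genes are left out. Glycogen breakdown lies at 0.33 to 0.46 in Rpt3+/+ and at -0.47 to -0.36 in Rpt3-/- muscle, and regenerating fiber markers at -1.10 to -0.90 and 0.61 to 1.27.

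Psmc4, the gene of Rpt3, was 2.24-fold lower in Rpt3-/- muscle, with 10.91 to 11.16 in Rpt3+/+ and 9.78 to 10.01 in Rpt3-/- mice (adjusted p = 0.000309), the direction its label gives. Arrays had 57.0% to 74.5% of probes above background; Rpt3+/+ replicate 2 was the dimmest, with a median background-subtracted intensity of 52.7 against 80.2 to 114 on the others. All measured members but Slc2a1 were above background on all 6 arrays. The number of arrays limits the precision of every value.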

How the data were processed

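RNA of 3 Rpt3-/- and 3 Rpt3+/+ muscle samples was measured on 1-colour arrays. The scanner reports deposited by the authors hold a spot intensity, a local background intensity and a quality flag, written by CodeLink Expression Analysis 5.0.0.31312 (version from the file headers) and not yet normalized between arrays. A second deposited table, of linear-scale intensities, has columns that share their median and maximum and correlate at 0.9922 to 0.9981 with their own arrays; the step that made it is not stated in the sources used here, and this value table served as an alternative.

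Of 34967 transcript probes, 21615 had 1 symbol in the platform annotation, 681 had several and stayed unnamed, 536 were named by RefSeq accession, and 12135 had no name here. Background was corrected by normexp (offset 50) and arrays were quantile normalized in limma 3.58.1 (R 4.3.3). Once the background had been corrected, 1260 control spots were dropped. Testing required a probe free of near-background, masked and contaminated flags on 3 or more of 6 arrays, and a gene's brightest such probe was used. Fits used lmFit and eBayes, and genes were called at an adjusted p under 0.05. The methods' test is the unpaired test that the study names for all its data; the rank test it also names cannot reach that threshold here. Promoter windows came from RefSeq (GRCm38.p6).

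Named were all members, Psmc4 and Actb. In other pathway lists and fiber marker lists, the rule named up to 4 called genes of largest difference and the one of lowest adjusted p. Of the macrophage markers it gives, only Ctss and Fcer1g were named, and none of the adipocyte, fibroblast, endothelial or red cell markers. Csf1r, Cd68, Adgre1, Itgam, Cd163, Mrc1, Laptm5, Tnni2, Mylpf, Tnnc2, Atp2a1, Pvalb, Myh4, Myh7, Myoz2, Myl3, Pdk3, Pdhb and Dlat were named outside the rule. Members and lists were chosen with earlier results of these data known. The fit was tested on simulated data. Alternatives were other background corrections, normalizations, filters, probe rules and error models, the value table, each array left out in turn and the replicate number as a block.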

Additional observations from a re-analysis of the deposited data

How the results depend on the processing

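Of the 18 called members, 11 kept their call in all 20 alternatives other than the methods' test that could be run on them (19 for Slc2a1, which was not above background on all 6 arrays): Slc2a1, Slc2a4, Ldha, Fbp2, Pygm, Phka1, Phkg1, Pgm1, Ppp1r3a, Ppp1r3c and Stbd1. Of these, Ldha and Ppp1r3c were not called by the methods' test after adjustment (adjusted p = 0.054 and 0.0509). Over 22 settings, 692 of 769 values of single members kept direction and side of the threshold, 43 lost and 26 gained a call, and 0 called values turned sign. The number of members called lower was 10 with median centring and 9 by the methods' test after Benjamini-Hochberg adjustment, against 16. With the methods' test 20 were lower and 2 higher before adjustment. The number called higher was 1 when a gene had to be above background on all 6 arrays, which removes Slc2a1, and 4 with median centring, against 2. The median log2 difference of the members was -0.31 with median centring. Leaving out 1 array gave 11 to 19 members lower, 2 to 3 higher and a median of -0.57 (without control replicate 1) to -0.38; 11 were lower without control replicate 3. The cause of these changes was not tested, except that fewer arrays or genes entered where they were left out. Array weights gave 22 lower and 3 higher.

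Over all genes, 967 were called lower and 1870 higher. Array weights gave 2361 and 3008, the methods' test after adjustment 427 and 940 (1636 lower before adjustment), and median centring 600 and 2556. Without Rpt3 null replicate 1, 478 were lower; without Rpt3 null replicate 3, 541 and 1153; without control replicate 3, 389 and 1086.

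Deviations of same-numbered samples from their group means correlated at 0.126, -0.438 and 0.0983 over the tested genes. With 3 arrays a group, these values cannot decide whether same-numbered samples share more than a number. With the replicate block 15 members were lower and 2 higher, with a median of -0.42, and over all genes 873 and 1722. The block cost the call of Pgam2 (adjusted p = 0.0843) and raised the adjusted p of Hk2 from 0.0594 to 0.125. It lowered the adjusted p of Gyg from 0.0172 to 0.00186 and that of Ppp1r3c from 0.000725 to 1.62e-05. Not every sample correlated best with its own number.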
